A study of Mus musculus with 9 samples.

Results

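Phenylephrine, an agonist of α1-adrenoceptors, was infused together with isoprenaline, an agonist of β-adrenoceptors, and the hearts of these mice (ISO/PE) were compared with hearts of mice that received isoprenaline alone (ISO). The comparison uses 6 of the 9 hearts of the series, 3 ISO/PE and 3 ISO hearts, taken by their labels, and describes what was added by phenylephrine across all genes. ISO/PE mice received isoprenaline at 30 mg/kg/day and phenylephrine at 30 mg/kg/day, and ISO mice isoprenaline at 30 mg/kg/day, both from implanted osmotic minipumps for 96 h. All were wild-type mice of the strain C57Bl6N, labelled as 2 to 3 months old (the study's methods give an older range), with 1 female and 2 males in each group (female2, male1 and male2, the order in which the values of each group are given). The other 3 hearts, from control mice, enter only 1 alternative fit. RNA was taken from whole right and left ventricles, so that fewer cells of a type and less RNA per cell cannot be told apart, and none of the hearts analysed here received phenylephrine alone.

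α1-Adrenoceptors couple through Gq to phospholipase C, which releases inositol trisphosphate and diacylglycerol and so engages calcium, protein kinase C and mitogen-activated protein kinases. β-Adrenoceptors couple mainly through Gs to cAMP and protein kinase A, which drives rate and force of the heartbeat. Cardiomyocytes carry both, and α1-agonists are a classical stimulus of hypertrophic growth in cultured cardiomyocytes.

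The 6 libraries held 11969786 to 14480447 counts each, after 1 transcript was kept per gene. ISO/PE and ISO hearts lay apart on the first principal component, which held 57.8% of the variance of the 1000 most variable genes. ISO/PE hearts scored 21.2, 11.4 and 18.5, against -30.3, -11.9 and -8.94 in ISO hearts, so that ISO female2 stood farthest from the ISO/PE hearts. On the second component, with 18.2% of the variance, both females scored above all 4 males. Over the genes called below, the median log2 difference between same-named hearts was 1.19, 0.72 and 0.68 for the genes higher in ISO/PE and -1.08, -0.75 and -0.60 for those lower in ISO/PE. Over these genes, which were picked with these same hearts, the female hearts thus lay farther apart than the same-named male hearts.

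**Figure D1:**
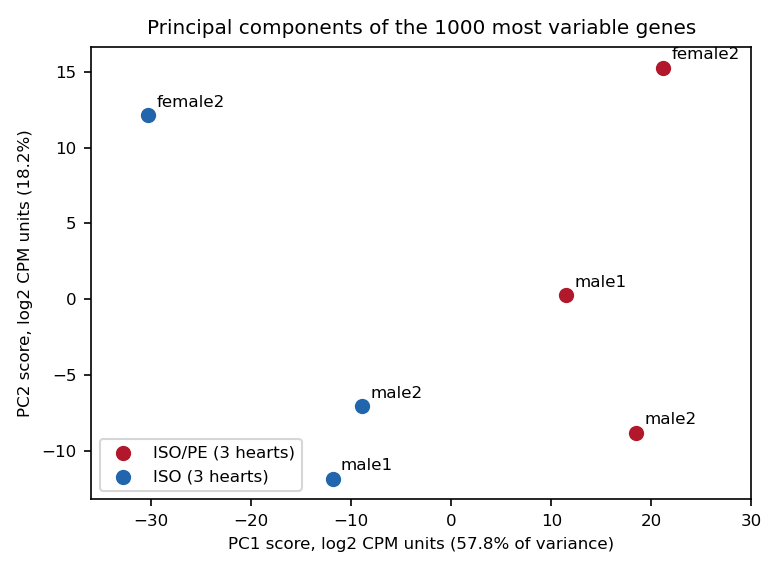
Scores of 3 ISO/PE hearts (red) and 3 ISO hearts (blue) on the first component (x axis) and the second component (y axis) of log2 CPM of the 1000 most variable genes, in log2 CPM units. The ISO/PE hearts lie at 11.4 to 21.2 on the x axis and the ISO hearts at -30.3 to -8.94, with ISO female2 at the far left.

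Of 14294 genes tested, 460 were higher and 338 lower in ISO/PE than in ISO hearts at an adjusted p under 0.05 (edgeR quasi-likelihood test, Benjamini-Hochberg) and an absolute log2 fold change above 0.6. These are 3.22% and 2.36% of the genes tested, the shares against which the counts of each gene group below are to be read. At an adjusted p under 0.05 without the fold threshold, 1369 genes (9.58%) passed. The changes were moderate in size, with a median absolute log2 fold change of 0.89 among the genes higher and 0.85 among those lower in ISO/PE. A log2 fold change above 1 was reached by 187 of the 460 genes, and one below -1 by 111 of the 338. The groups did not overlap in 793 of the 798 called genes, against 33.8% of all genes tested. This follows largely from the calls, which rest on the same values.

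The number of calls depended on single hearts. Without ISO male1, 57 genes were called higher and 36 lower, without ISO/PE female2 75 and 45, and without ISO female2 218 and 127. Leaving out ISO/PE male1, ISO/PE male2 or ISO male2 gave 393 to 523 genes higher and 315 to 449 lower. Over the 460 genes called higher, the median log2 fold change stayed between 0.808 and 0.997 in these 6 fits, and over the 338 called lower between -0.92 and -0.76. In the male hearts alone, 2 against 2, the medians were 0.76 and -0.70, and 70 genes were called higher and 22 lower. The 460 and 338 genes were picked with all 6 hearts, so these medians do not show how stable the fold changes are. Each library was labelled as its own heart, and the p values weigh the group difference against the spread between hearts within the groups. The scale of the libraries also bore on the split of the calls, which was 561 higher and 264 lower with total counts as library sizes and 4742 higher and 81 lower with the libraries scaled to 14 cardiomyocyte markers. Scaling to these markers raised the median log2 fold change of all genes by 0.51, and of the 63 gene lists only channels and red cell genes then had a negative median.

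**Figure D2:**
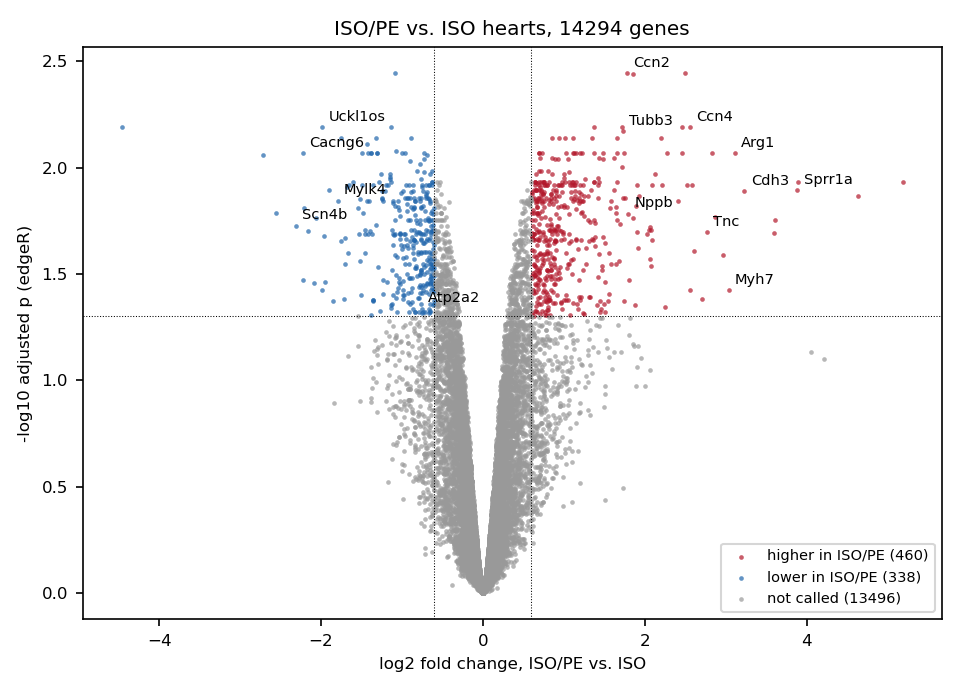
Log2 fold change of ISO/PE vs. ISO (x axis) and -log10 of the adjusted p from edgeR (y axis) for 14294 genes, with the thresholds as dotted lines. The 460 genes higher in ISO/PE are red, the 338 genes lower in ISO/PE blue, and Sprr1a and Scn4b are among those with the largest folds on either side.

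Ranked by fold among called genes with a mean of at least 5 CPM (counts scaled to the size of the library) and groups that did not overlap, the 12 genes that rose most included Sprr1a, Cdh3, Arg1, Chil3, Tnc, Spp1, Ccn4, Serpinb1a, Nmrk2, Cemip and Serinc2. Sprr1a, on chromosome 3 (92483954 to 92485881, GRCm38), encodes a small proline-rich protein of the cornified envelope and had 366, 159.6 and 217 CPM in ISO/PE hearts, against 2.703, 25.05 and 22.8 CPM in ISO hearts. Its log2 fold change was 3.88 (SE 0.62, adjusted p = 0.0127), and ISO female2 was well below the other ISO hearts. Arg1 (arginase) and Chil3 (a chitinase-like lectin secreted by macrophages) rose side by side. Arg1 had 12.4, 8.595 and 15.3 CPM in ISO/PE and 0.463, 2.08 and 1.697 CPM in ISO hearts, a log2 fold change of 3.11 (SE 0.39, adjusted p = 0.0085). Chil3 had 11.3, 7.74 and 14.4 CPM in ISO/PE and 0.695, 2.08 and 1.94 CPM in ISO hearts, a log2 fold change of 2.84 (SE 0.36, adjusted p = 0.0085). Both genes were low in every ISO heart.

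The matricellular gene Ccn4 had 67.9, 45.1 and 42.8 CPM in ISO/PE and 5.64, 11.6 and 9.38 CPM in ISO hearts, a log2 fold change of 2.56 (SE 0.26, adjusted p = 0.00642). The P-cadherin gene Cdh3 rose by 3.23, Tnc (tenascin C) by 2.77 and Spp1 (osteopontin) by 2.71 on the log2 scale. Serpinb1a, an inhibitor of neutrophil serine proteases, rose by 2.53, Nmrk2, a muscle kinase that makes nicotinamide mononucleotide, by 2.46, the hyaluronan-binding gene Cemip by 2.41 and Serinc2 by 2.27. Per the study's methods counting was not stranded, so that reads of overlapping genes cannot be told apart. Shares of 10.7% to 30.7% of their exon bases lie in another gene for Spp1 and Nmrk2 and for Cryab, Hsp90b1, Ssr2, Tgfb3, Uchl1, Myh7, Loxl3, Uckl1os, Atcay, Fabp3, Pfkm, Pfkfb2, Cdkn1c, Gadd45a and Alas2, all described below. Of the 12 genes, 7 stayed called without ISO male1, 8 without ISO/PE female2 and 11 or 12 without any other heart. Sprr1a, Tnc and Spp1 were lost without ISO male1 and without ISO/PE female2. Cdh3 and Serpinb1a were lost without ISO male1 and Cemip without ISO/PE female2. Spp1 was also lost without ISO/PE male1, ISO/PE male2 or ISO male2.

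The promoter of Sprr1a is shown because it belongs to the gene with the largest rise by this rule and holds 2 matches, in capitals, to the AP-1 motif TGANTCA (both strands searched, from 250 bases before to 50 after the start site, RefSeq, GRCm38.p6, chr3:92485832-92486131, minus strand).
Sprr1a: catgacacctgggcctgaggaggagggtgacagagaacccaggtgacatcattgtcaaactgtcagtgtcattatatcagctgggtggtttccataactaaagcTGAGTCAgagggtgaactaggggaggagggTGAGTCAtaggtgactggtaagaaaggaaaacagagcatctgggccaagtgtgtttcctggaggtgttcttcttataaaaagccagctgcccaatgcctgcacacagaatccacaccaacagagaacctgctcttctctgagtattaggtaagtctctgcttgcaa
This motif was found in 33 of 341 promoters of the genes higher in ISO/PE for which one was given (9.68%), in 18 of 253 of those lower in ISO/PE (7.11%) and in 572 of 11167 of all genes tested (5.12%). A match is a description of the letters and shows no binding.

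By the difference in mean CPM, the 10 genes called higher with the largest increases were Col1a1, Ankrd1, Postn, Des, Col1a2, Cryab, Fn1, Tnc, Myh7 and Serpinh1. Col1a1, a chain of type I collagen, averaged 4607 ± 1032 CPM in ISO/PE and 1955 ± 682 CPM in ISO hearts (SD, n = 3 each). Ankrd1, a stretch-responsive ankyrin repeat protein of the sarcomere and nucleus, had 3822, 4027 and 4326 CPM in ISO/PE and 706, 1587 and 2106 CPM in ISO hearts, a log2 fold change of 1.47 (SE 0.33, adjusted p = 0.0291). Des (desmin, the muscle intermediate filament) rose by 0.68 and Cryab (αB-crystallin, a small heat shock protein that binds desmin) by 0.80 on the log2 scale. ISO female2 had the lowest value of the ISO hearts for all of these 10 genes except Myh7. None of the 10 stayed called without ISO male1 or without ISO/PE female2. Without ISO female2, Ankrd1, Tnc and Serpinh1 were still called, without ISO/PE male1 Cryab, Tnc, Myh7 and Serpinh1, and without ISO/PE male2 or ISO male2 all but 1.

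Outside the matrix, genes of the endoplasmic reticulum (ER) rose together. Of 25 tested genes of protein folding in the ER and the unfolded protein response, 13 rose and none fell, with a median log2 fold change of 0.62, against -0.00 over all genes tested. The heavy chain binding protein gene Hspa5, the master chaperone of the ER, had 535, 489 and 750.2 CPM in ISO/PE and 304, 357 and 336 CPM in ISO hearts, a log2 fold change of 0.83 (SE 0.16, adjusted p = 0.0197). The disulfide isomerase gene Pdia6 had 265, 178 and 255 CPM in ISO/PE and 76.1, 104 and 112 CPM in ISO hearts, a log2 fold change of 1.26 (SE 0.18, adjusted p = 0.0113). Both genes were higher in every ISO/PE heart than in any ISO heart. Related enzymes rose by 1.06 (Pdia4) and 0.92 (Pdia3), the chaperones Hsp90b1 and Calr by 0.94 and 0.90, and Edem1, which passes misfolded glycoproteins on for degradation, by 0.76 on the log2 scale. Not every gene of the response passed the test. Herpud1, of ER-associated degradation, had 179.8, 225 and 227 CPM in ISO/PE and 299, 208 and 189 CPM in ISO hearts (adjusted p = 0.625).

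Traffic from the ER to the Golgi followed with smaller changes. Of 31 tested genes, 6 rose and none fell (median 0.34), and 29 of the 31 had a log2 fold change above 0. The KDEL receptors Kdelr3 and Kdelr2, which return chaperones to the ER, rose by 0.88 and 0.71, the cargo receptor Tmed3 by 0.67 and the translocon-associated gene Ssr2 by 0.60 on the log2 scale. Without ISO male1, 1 folding gene and no transport gene was called higher, without ISO/PE female2 2 and none, and without ISO female2 8 and 2. Without any of the other 3 hearts, 12 to 14 folding genes and 6 or 7 transport genes were called. Activated fibroblast markers, of cells that secrete matrix, summed to 6661 to 8532 CPM in ISO/PE and 1610 to 3583 CPM in ISO hearts, and their part in the rise of the ER genes was not tested.

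Promoters of 4 of the folding genes that rose are shown because they hold the ER stress element, CCAAT and CCACG with 9 bases between them, the site through which ATF6 and XBP1 are known to act. Matches on either strand are in capitals (RefSeq, GRCm38.p6, 250 bases before to 50 after the start site). Hspa5 lies at chr2:34771840-34772139 (plus strand), Hsp90b1 at chr10:86705395-86705694 (minus strand), Calr at chr8:84846882-84847181 (minus strand) and Pdia6 at chr12:17266339-17266638 (plus strand).
Hspa5: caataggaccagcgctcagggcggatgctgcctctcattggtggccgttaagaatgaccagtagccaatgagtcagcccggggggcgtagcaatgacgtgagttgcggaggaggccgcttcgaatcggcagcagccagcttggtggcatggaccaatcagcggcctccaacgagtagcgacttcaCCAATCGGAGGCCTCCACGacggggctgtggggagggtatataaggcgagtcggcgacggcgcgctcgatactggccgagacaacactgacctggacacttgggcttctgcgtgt
Hsp90b1: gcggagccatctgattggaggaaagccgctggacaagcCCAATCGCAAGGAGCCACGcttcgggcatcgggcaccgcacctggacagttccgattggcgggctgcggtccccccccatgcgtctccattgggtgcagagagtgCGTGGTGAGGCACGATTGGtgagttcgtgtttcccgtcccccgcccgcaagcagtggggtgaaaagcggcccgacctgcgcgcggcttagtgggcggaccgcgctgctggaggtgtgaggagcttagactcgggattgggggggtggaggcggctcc
Calr: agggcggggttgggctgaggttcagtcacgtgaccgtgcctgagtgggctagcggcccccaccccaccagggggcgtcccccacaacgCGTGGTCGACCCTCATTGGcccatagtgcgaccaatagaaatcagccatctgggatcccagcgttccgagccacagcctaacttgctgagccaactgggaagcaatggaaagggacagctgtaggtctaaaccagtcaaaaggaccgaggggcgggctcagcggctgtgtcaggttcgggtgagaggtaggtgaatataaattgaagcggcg
Pdia6: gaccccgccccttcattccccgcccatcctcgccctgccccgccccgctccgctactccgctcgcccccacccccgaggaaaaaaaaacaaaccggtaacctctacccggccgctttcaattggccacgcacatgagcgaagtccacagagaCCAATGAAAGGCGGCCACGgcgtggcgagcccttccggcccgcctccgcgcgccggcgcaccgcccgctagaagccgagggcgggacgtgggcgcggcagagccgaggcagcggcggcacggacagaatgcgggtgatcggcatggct
Of 11167 promoters of tested genes, 14 held the element (0.125%), and 8 of these 14 belonged to the folding list, whose members were listed as genes of this response. Among the folding genes, 5 of the 8 with the element were called higher (Creld2 being the fifth) and 3 were not (Canx, Dnajc3 and Syvn1), and 7 of the 13 without it were called higher. No promoter of a gene lower in ISO/PE held it (0 of 253), which was likely beforehand at a share of 0.125% over all promoters.

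**Figure D3:**
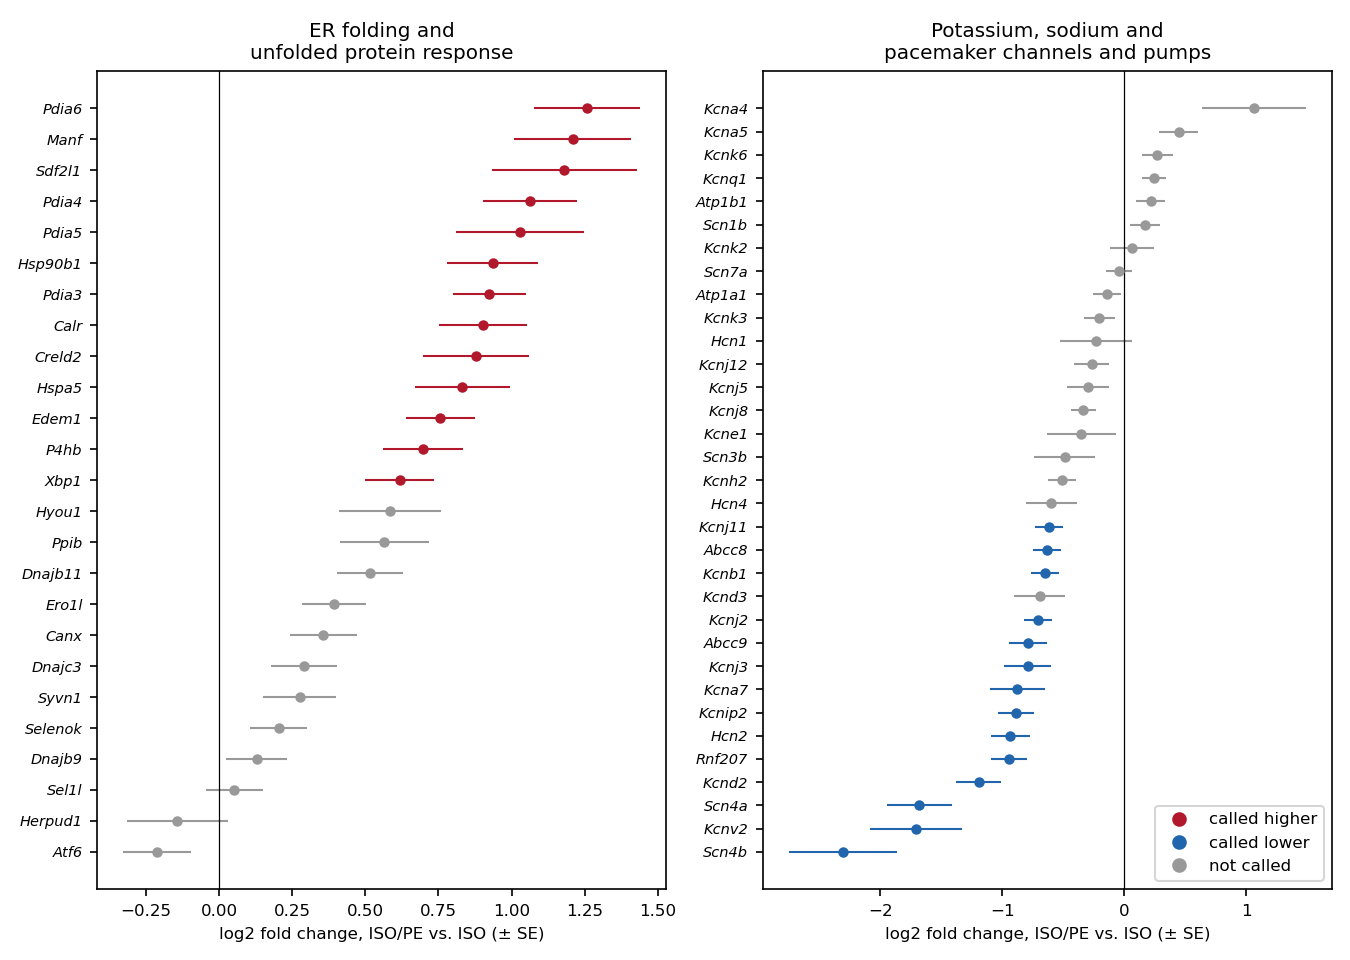
Log2 fold change of ISO/PE vs. ISO (x axis, ± SE) for the tested genes of ER folding (left, 25 genes) and of potassium, sodium and pacemaker channels and pumps (right, 33 of 35 genes). 13 ER genes are called higher (red) and 14 of the channel genes drawn lower (blue), and grey genes are not called.

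Several tubulin genes rose with little spread between hearts. Of 27 tested tubulins and microtubule-associated genes, 7 rose and 1 fell, with a median of 0.27. Tubb3, a β-tubulin best known from neurons (chromosome 8, 123411553 to 123422015), had 30.4, 25.7 and 26.8 CPM in ISO/PE and 6.02, 8.41 and 10.6 CPM in ISO hearts, a log2 fold change of 1.73 (SE 0.19, adjusted p = 0.00674). Tubb2b rose by 1.75, Tubb2a by 1.23 and Tubb6 by 0.86 on the log2 scale. Tubb2a and Tubb2b are near-identical and could have shared reads. The microtubule-stabilising gene Map1b rose by 0.67. The polyglutamylase subunit gene Ttll1 fell to 45.5, 47.00 and 54.9 CPM in ISO/PE hearts, against 96.9, 101 and 77.1 CPM in ISO hearts (log2 fold change -0.90, SE 0.12, adjusted p = 0.0093). Of the 7 tubulin genes, 4 stayed called without ISO male1, ISO/PE female2 or ISO female2, and Tubb3, Tubb2b, Tubb2a, Tubb6 and Ttll1 kept their calls in all 6 fits that left out a heart.

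Among 52 tested actin-binding and adhesion genes, 9 rose and none fell (median 0.42). Cnn1 (calponin of smooth muscle and myofibroblasts) had 55.8, 26.9 and 42.9 CPM in ISO/PE and 7.95, 9.71 and 9.698 CPM in ISO hearts, a log2 fold change of 2.20 (SE 0.25, adjusted p = 0.00727). Acta2, the smooth muscle actin gene, had 605, 527 and 519 CPM in ISO/PE and 271, 245 and 304 CPM in ISO hearts, a log2 fold change of 1.01 (SE 0.12, adjusted p = 0.00727). Both genes kept their calls without any 1 heart, as did Tagln (transgelin, 1.12), 67.9% of whose exon bases lie in genes of the other strand. Enah, which elongates actin filaments, rose by 0.82 and lost its call without ISO male1. The list held 3 called genes without ISO male1, 4 without ISO/PE female2, 5 without ISO female2 and 16 without ISO male2. Of the smooth muscle and pericyte markers, 4 of 14 rose and 1 fell (median -0.014), and 8 had a log2 fold change below 0. Their summed level was 6869 to 7900 CPM in ISO/PE and 4924 to 5719 CPM in ISO hearts. Most of this sum was Des, the muscle intermediate filament gene. Des had 5458, 4455 and 4584 CPM in ISO/PE and 2563, 3066 and 3421 CPM in ISO hearts. The part of these cells in the rise of the contractile genes was not tested.

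Growth factors and cytokines that the heart makes rose in 9 of 39 tested genes, and none fell (median 0.19). Ccn2 (connective tissue growth factor, chromosome 10, 24595442 to 24598683) had 643, 574 and 770.5 CPM in ISO/PE and 177, 178 and 225 CPM in ISO hearts, a log2 fold change of 1.78 (SE 0.15, adjusted p = 0.00359). Of its exon bases, 23.2% lie in a gene of the other strand. The transforming growth factor genes Tgfb2 and Tgfb3 rose by 0.73 and 0.97, whereas Tgfb1 had 157, 153 and 139.8 CPM in ISO/PE and 119, 131 and 136 CPM in ISO hearts (adjusted p = 0.163). Hbegf, a ligand of the epidermal growth factor receptor, rose by 1.07, Gdf15, a stress-induced hormone that curbs appetite, by 1.502 and Il6 by 1.74 on the log2 scale. Il6 was low, at 1.71, 1.32 and 1.94 CPM in ISO/PE and 0.154, 0.693 and 0.647 CPM in ISO hearts, and its call was lost in each of the 6 fits that left out a heart. Ccn2 and Tgfb2 kept their calls in all 6 fits that left out a heart. The list held 3 called genes without ISO male1, 5 without ISO/PE female2 and 6 to 10 without any other heart.

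Among 32 tested immediate early and MAPK feedback genes, 7 rose and none fell (median 0.27). Ier3, an early response gene of survival signalling, had 90.7, 87.4 and 101 CPM in ISO/PE and 53.8, 53.3 and 46.96 CPM in ISO hearts, a log2 fold change of 0.86 (SE 0.10, adjusted p = 0.00727). Myc had 17.95, 20.3 and 26.6 CPM in ISO/PE and 9.19, 11.4 and 9.62 CPM in ISO hearts, a log2 fold change of 1.10 (SE 0.17, adjusted p = 0.0121). Both genes kept their calls in every fit that left out a heart. Egr2 rose by 1.64, Atf3 by 1.41 and Junb by 0.63 on the log2 scale. Atf3 had 18.7, 14.2 and 41.6 CPM in ISO/PE and 7.41, 10.8 and 9.78 CPM in ISO hearts, with ISO/PE male2 highest. Its log2 fold change was 0.82 without that heart, and it stayed called in only 2 of the 6 fits that left out a heart. The best-known members did not pass the test, since Fos had 11.1, 9.21 and 13.96 CPM in ISO/PE and 8.26, 9.19 and 9.29 CPM in ISO hearts (adjusted p = 0.207), and Egr1 53.99, 40.7 and 50.6 CPM in ISO/PE and 38.7, 43.6 and 45.02 CPM in ISO hearts (adjusted p = 0.323). Without ISO/PE female2, 2 of the 32 were called, without ISO male1 3, without ISO/PE male2 4, and 5 to 7 without any other heart.

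Chemokines, cytokines and their receptors had a median of 0.53 over 42 tested genes, of which 6 rose and 1 fell. Osmr, the receptor subunit of oncostatin M, had 91.3, 82.9 and 108 CPM in ISO/PE and 45.9, 54.7 and 55.7 CPM in ISO hearts, a log2 fold change of 0.85 (SE 0.12, adjusted p = 0.0107). Tnfrsf12a (Fn14, the receptor of TWEAK) rose by 1.16, Il4ra by 1.01 and the chemokine receptor gene Cxcr6 by 2.87 on the log2 scale. Cxcl12, which retains stem and immune cells, fell by 0.66, and the complement inhibitor gene Cd55 fell by 0.69. Only Osmr and Cd55 of these genes kept their calls in every fit that left out a heart. The list held 1 gene called higher without ISO male1 or ISO/PE female2, and 5 to 9 without any other heart. No interferon-induced gene (of 25) and no MHC class II gene (of 9) was called by edgeR, DESeq2 or limma-voom, and none had an unadjusted p under 0.05, although 2 interferon-induced genes were called lower without ISO/PE male1. Macrophage and monocyte markers summed to 2181 to 2813 CPM in ISO/PE and 1213 to 2032 CPM in ISO hearts, with 2 of 16 higher (Cd14 by 0.67 and Trem2 by 1.11, both lost without ISO male1, ISO/PE female2 or ISO female2, Cd14 also without ISO/PE male2 and Trem2 also without ISO/PE male1 or ISO male2). All 7 tested neutrophil markers had a positive log2 fold change (median 1.15). None of them was called by edgeR or limma-voom, 3 were by DESeq2, 2 were by edgeR without ISO/PE male1, and 6 had an unadjusted p under 0.05. Their summed level was 17.96 to 34.7 CPM in ISO/PE and 8.57 to 15.9 CPM in ISO hearts. Their part in the changes of Arg1, Chil3 and the cytokine receptors was not tested.

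Of 26 tested natriuretic peptide, fetal and wall-stress genes of the cardiomyocyte, 9 rose and none fell (median 0.52). Nppb, the B-type natriuretic peptide gene, had 551, 541 and 885 CPM in ISO/PE and 102, 197 and 272 CPM in ISO hearts, a log2 fold change of 1.79 (SE 0.33, adjusted p = 0.0164). Nppa had 1796, 1465 and 1129 CPM in ISO/PE and 389, 745 and 1022 CPM in ISO hearts and did not pass the test (log2 fold change 1.03, adjusted p = 0.0694), and 61.5% of its exon bases lie in a gene of the other strand. Xirp2, an actin-binding MEF2 target, rose by 0.94, Ankrd2, a muscle stress sensor, by 2.58 and Uchl1, a deubiquitinase, by 0.80 on the log2 scale. Rcan1, whose transcript is induced by calcineurin, rose by 0.998 and was the only one of 22 calcineurin, MEF2 and Nr4a genes called higher, while Camk2b fell by 0.72. Nr4a1 had 41.1, 44.6 and 110.1 CPM in ISO/PE and 50.3, 67.9 and 48.1 CPM in ISO hearts (adjusted p = 0.685).

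Myh7, the slow myosin heavy chain gene, varied widely between hearts. It was at 1944, 132 and 707 CPM in ISO/PE and 106, 139 and 95.04 CPM in ISO hearts, so that ISO/PE male1 lay within the ISO range although the gene was called (log2 fold change 3.04, SE 0.74, adjusted p = 0.0376). Without ISO/PE female2 its log2 fold change was 1.89. Myh6, its fast neighbour on chromosome 14 with a similar sequence, had 3199, 7676 and 5869 CPM in ISO/PE and 13822, 12907 and 9312 CPM in ISO hearts (log2 fold change -1.11, adjusted p = 0.0556). The skeletal actin gene Acta1 had 566, 1774 and 789 CPM in ISO/PE and 517, 501 and 894 CPM in ISO hearts (adjusted p = 0.265), and its groups overlapped. None of Nppb, Xirp2, Ankrd2, Uchl1, Rcan1, Camk2b and Myh7 stayed called without ISO male1, and only Ankrd2 and Uchl1 did without ISO/PE female2. Without ISO female2, Rcan1, Myh7 and Camk2b lost their calls, and without ISO male2 Myh7 did.

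**Figure D4:**
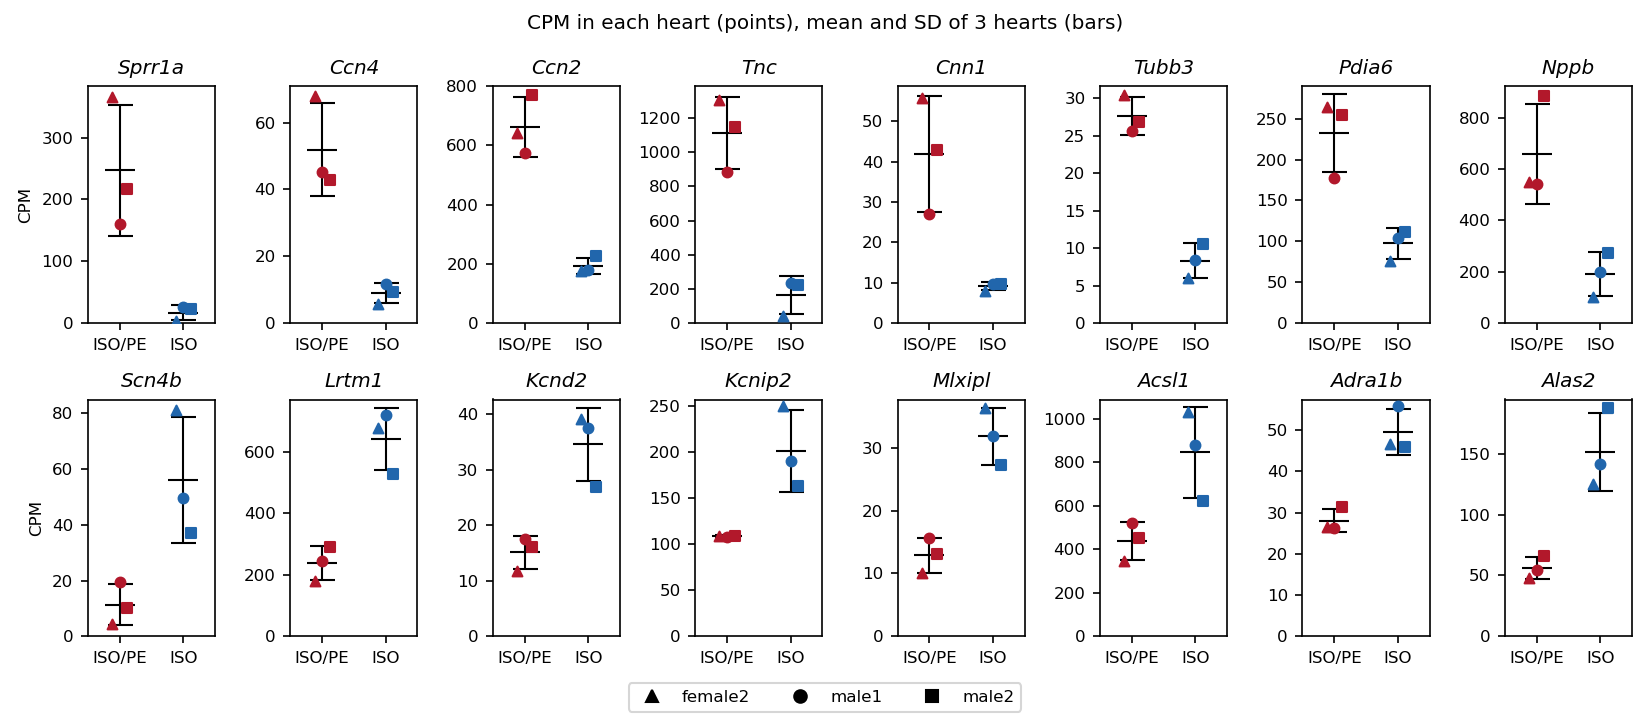
CPM (y axis, linear, from 0) of 16 genes in each ISO/PE heart (red, left) and ISO heart (blue, right), with the mean and SD of 3 hearts as bars and a marker for each heart. The upper row shows genes higher in ISO/PE and the lower row genes lower in ISO/PE, without overlap between the groups.

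The matrix genes are described here by their enzymes and by the members that went the other way. Of 28 tested collagen-modifying and cross-linking enzymes, 14 rose and none fell (median 0.55). Plod2, a lysyl hydroxylase, had 92.7, 74.95 and 82.02 CPM in ISO/PE and 46.95, 39.1 and 44.5 CPM in ISO hearts, a log2 fold change of 0.94 (SE 0.11, adjusted p = 0.00727). The proline hydroxylases P4ha1 and P3h1 rose by 1.24 and 0.81, and the cross-linking enzymes Lox and Loxl3 by 2.03 and 1.43 on the log2 scale. Of 26 tested collagen chains, 10 rose, such as Col8a1 (1.20), Col12a1 (1.62) and Col5a2 (1.19), and 2 fell. These 2 are chains of the collagen IV network of specialised basement membranes, Col4a3 and Col4a4, divergent neighbours on chromosome 1. Col4a3 stayed called only without ISO/PE male1, and Col4a4 lost its call without ISO/PE female2 or ISO male1. Col4a4 had 3.81, 8.21 and 5.82 CPM in ISO/PE and 20.5, 12.8 and 15.9 CPM in ISO hearts, a log2 fold change of -1.48 (SE 0.27, adjusted p = 0.0164).

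Further genes of the matrix fell, namely Tnxb (tenascin X) by 1.05, Emilin2 by 0.68, the membrane metalloproteinase gene Mmp15 by 0.72 and the basement membrane genes Lamb3 and Agrn by 1.09 and 0.64 on the log2 scale. Matricellular genes had 14 of 45 higher and 3 lower, and 1 to 3 higher without ISO male1 or ISO/PE female2 and 8 without ISO female2 or ISO/PE male1. Matrix proteases and their inhibitors had 9 of 38 higher and 1 lower, and 1 to 3 higher without ISO male1 or ISO/PE female2. Integrin genes went both ways, with 3 of 25 higher (Itga5 0.81, Itgb5 0.60 and Itgb7 0.86) and 3 lower (Itgb6 -0.70, Itgb4 -0.64 and Itgal -0.80). Without ISO male1, 2 modifying enzymes and no collagen chain stayed called, and without ISO/PE female2 3 and none. Without ISO female2, 4 chains were called higher. Tnxb, Mmp15 and Lamb3 stayed called without ISO/PE female2, and of these only Mmp15 without ISO male1. No basement membrane gene was called without ISO female2 or ISO male1. Of the integrins, Itgb4 alone stayed called without ISO male1, none did without ISO/PE female2, Itga5 alone without ISO female2, and Itga5 and Itgb5 without ISO/PE male1. Without ISO/PE male2 Itgb6 was the only integrin gene called lower. Of 12 activated fibroblast markers, 10 rose (median 1.29, 2 without ISO male1 and 3 without ISO/PE female2), and their summed level was 6661 to 8532 CPM in ISO/PE and 1610 to 3583 CPM in ISO hearts. Of 13 other fibroblast markers, 2 rose (Col1a1 and Col1a2) and 2 fell (Scara5 and Pi16), with a median of -0.12. Their summed level was 14488 to 18789 CPM in ISO/PE and 9139 to 12322 CPM in ISO hearts, without overlap. Col1a1 and Col1a2 entered this sum with means of 4607 and 3108.5 CPM in ISO/PE and 1955 and 1437 CPM in ISO hearts. Of the 13 markers, 8 had a log2 fold change below 0. Neither collagen gene stayed called without ISO male1, ISO/PE female2, ISO female2 or ISO/PE male1. The part of these cells in the matrix changes was not tested.

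The 12 genes that fell most by fold, by the same rule, included Scn4b, Cacng6, 2210407C18Rik, Klhl33, Uckl1os, Mylk4, Foxo6, Scn4a, Atcay, Clcn1 and H2-Q8. Scn4b, the β4 subunit of voltage-gated sodium channels (chromosome 9, 45138624 to 45154155), fell to 4.603, 19.4 and 10.2 CPM in ISO/PE hearts, against 80.9, 49.5 and 37.2 CPM in ISO hearts. Its log2 fold change was -2.31 (SE 0.44, adjusted p = 0.0187), with ISO/PE male1 highest of its group. Cacng6, a γ subunit of calcium channels, had 1.71, 1.704 and 1.87 CPM in ISO/PE and 7.41, 11.4 and 6.06 CPM in ISO hearts, a log2 fold change of -2.22 (SE 0.27, adjusted p = 0.0085). The values of Cacng6 in ISO/PE hearts were nearly equal. Mylk4, a myosin light chain kinase family gene, had a log2 fold change of -1.80, Foxo6, a forkhead factor, -1.75, Scn4a, the sodium channel of skeletal muscle, -1.68, and Clcn1, the chloride channel of skeletal muscle, -1.54. The Kelch gene Klhl33 had -2.06, the antisense transcript Uckl1os -1.98, 2210407C18Rik -2.21, the caytaxin gene Atcay -1.60 and H2-Q8, one of a family of near-identical class I genes, -1.51. Without ISO/PE female2, 3 of the 12 stayed called (Cacng6, Uckl1os and Foxo6), and without ISO male1 4, these among them. H2-Q8 was the only one lost without ISO female2.

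By the difference in mean CPM, the 10 genes called lower with the largest decreases included Atp2a2, Ckm, Ltbp4, Eno3, Hbb-bs, A930016O22Rik, Acsl1, Lrtm1 and Hbb-b1. The globin genes Hbb-bs and Hbb-b1 had log2 fold changes of -1.04 and -1.02. Hbb-bs had 387, 446 and 505 CPM in ISO/PE and 790, 759 and 1197 CPM in ISO hearts. Hbb-b1 had 322, 382 and 430 CPM in ISO/PE and 662, 633 and 1000 CPM in ISO hearts. The values of these globin genes were nearly proportional, so they are to be read as 1 result. Lrtm1, a leucine-rich repeat membrane protein gene (chromosome 14, 29018208 to 29033642), had 180.1, 246 and 290.4 CPM in ISO/PE and 677, 718 and 527 CPM in ISO hearts, a log2 fold change of -1.42 (SE 0.19, adjusted p = 0.0085). It was the only one of the 10 that stayed called without ISO/PE female2 or without ISO male1, and 5 of the 10 stayed called without ISO female2. Ckm (muscle creatine kinase) fell to 1649 ± 236 CPM in ISO/PE hearts, against 2818 ± 212 CPM in ISO hearts (SD, n = 3 each), and 15.5% of its exon bases lie in A930016O22Rik of the other strand, so these 2 values are not independent. Ltbp4, which binds latent TGFβ to elastic fibres, had a log2 fold change of -0.86.

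By number, channels and pumps that shape the action potential held more genes called lower in ISO/PE than any other of the 63 lists. By share, the red cell genes described below held more, with 7 of 7 called lower. Of 35 tested potassium, sodium and pacemaker channel genes, 15 fell and none rose, with a median of -0.51. Kcnd2 encodes a channel subunit of the transient outward potassium current, and Kcnip2 an accessory subunit of that channel. Kcnd2 had 11.8, 17.5 and 16.2 CPM in ISO/PE and 39.2, 37.6 and 26.99 CPM in ISO hearts, a log2 fold change of -1.19 (SE 0.18, adjusted p = 0.0121). Kcnip2 had 109, 107 and 109 CPM in ISO/PE and 249.7, 190.5 and 163 CPM in ISO hearts, a log2 fold change of -0.89 (SE 0.15, adjusted p = 0.013). ISO male2 was the ISO heart nearest to the ISO/PE hearts for both. Kcnj2, of the inward rectifier, had a log2 fold change of -0.71, Hcn2, a pacemaker channel gene, -0.93, Rnf207, a ligase that regulates the HERG channel, -0.95, and the silent potassium channel subunit gene Kcnv2 -1.71. Kcna4 had 3.35, 1.39 and 1.49 CPM in ISO/PE and 0.772, 0.867 and 1.37 CPM in ISO hearts and did not pass the test (adjusted p = 0.142). None of the 15 genes stayed called without ISO male1, 1 (Kcnd2) did without ISO/PE female2, 8 did without ISO female2 and 13 to 16 were called without any other heart. Scaled to cardiomyocyte markers instead, the list's median was -0.00, against 0.505 over all genes tested.

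Calcium handling genes had 3 of 26 lower and none higher (median -0.28). The calcium pump gene of the sarcoplasmic reticulum, Atp2a2, had 6283, 7889.5 and 7581 CPM in ISO/PE and 13447, 13361 and 9916 CPM in ISO hearts, a log2 fold change of -0.76 (SE 0.20, adjusted p = 0.046). Atp2a3 fell by 0.68 and Hrc, which binds calcium in the sarcoplasmic reticulum, fell by 0.95 on the log2 scale. Of 29 sarcomere and Z-disc genes 1 fell (Tmod4, by 0.91), and of 20 cardiac transcription factors Prox1 and Tbx5 fell by 0.75 and 0.65. These 3 lists had positive log2 fold changes in 5, 4 and 1 of their tested genes. With the libraries scaled to cardiomyocyte markers, their medians were 0.23, 0.18 and 0.24, against 0.505 over all genes tested. The scaling raised the median of all genes too, so the change of sign says nothing particular about these lists. None of the 6 named genes stayed called without ISO/PE female2, Atp2a3 alone did without ISO male1 and Prox1 alone without ISO female2. Atp2a2 was also lost without ISO/PE male1 or ISO/PE male2, and Tbx5 without ISO/PE male1. Without ISO male2, 6 calcium handling and 4 sarcomere genes were called lower, and without ISO/PE male1 5 sarcomere genes.

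Receptors of both drugs were measured. Adra1b, the more abundant α1-receptor transcript here at 4.28 against 0.773 RPKM for Adra1a in ISO/PE hearts (means of the deposited values), fell to 26.5, 26.3 and 31.4 CPM in ISO/PE hearts, against 46.6, 55.9 and 45.9 CPM in ISO hearts. Its log2 fold change was -0.82 (SE 0.11, adjusted p = 0.0103), and the call held without any 1 heart. Adra1a had 7.102, 6.504 and 6.64 CPM in ISO/PE and 14.3, 14.9 and 8.32 CPM in ISO hearts, a log2 fold change of -0.89 (SE 0.22, adjusted p = 0.0385), called only with all 6 hearts or without ISO male2. Adra1d had 6.25, 6.27 and 7.61 CPM in ISO/PE and 6.02, 5.03 and 6.22 CPM in ISO hearts (adjusted p = 0.43). The β1-receptor gene Adrb1 had 29.3, 30.04 and 24.9 CPM in ISO/PE and 38.00, 44.1 and 33.5 CPM in ISO hearts without overlap, but its log2 fold change of -0.46 did not pass (adjusted p = 0.0512). The angiotensin receptor gene Agtr1a fell to 34.7, 39.03 and 35.1 CPM in ISO/PE hearts, against 60.5, 65.3 and 54.2 CPM in ISO hearts (log2 fold change -0.73, SE 0.10, adjusted p = 0.00908), and held its call without any 1 heart.

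Genes of fatty acid use leaned low. Of 35 tested genes of fatty acid uptake and oxidation, 6 fell and 1 rose, with a median of -0.45. Acsl1, which activates long-chain fatty acids, had 345, 521 and 451 CPM in ISO/PE and 1033, 881 and 622 CPM in ISO hearts, a log2 fold change of -0.95 (SE 0.21, adjusted p = 0.0264). Cpt2, of the carnitine shuttle, fell by 0.81, Hadh, of β-oxidation, fell by 0.72, the fatty acid binding protein gene Fabp3 fell by 0.64 and the mitochondrial carrier gene Ucp3 fell by 1.85 on the log2 scale. Ucp3 was at 4.73, 9.99 and 2.76 CPM in ISO/PE and 28.7, 24.4 and 9.78 CPM in ISO hearts, and its groups overlapped. The fatty acid transporter gene Cd36 had 1089, 1307 and 1554 CPM in ISO/PE and 1285, 1457 and 1233 CPM in ISO hearts (adjusted p = 0.977). Angptl4, an inhibitor of lipoprotein lipase, was the gene that rose, at 12.5, 28.5 and 16.8 CPM in ISO/PE and 5.87, 6.500 and 4.69 CPM in ISO hearts (log2 fold change 1.76, SE 0.30, adjusted p = 0.0138). Without ISO male1, ISO/PE female2 or ISO female2 no gene of the list was called lower, without ISO/PE male2 3 were and without ISO male2 16. Angptl4 lost its call without ISO male1.

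The mitochondrial lists had negative medians within the fold threshold and few calls. Complex I genes had a median of -0.32 with 36 of 37 below 0, the ATP synthase -0.33 with all 16 below 0, and complexes III and IV -0.36 with 1 of 25 called (Cox8b, which fell by 0.67). No gene of complex I or the ATP synthase was called by edgeR, DESeq2 or limma-voom, while 26 and 10 had an unadjusted p under 0.05, and 1 and 2 were called lower without ISO/PE male1. The TCA cycle had a median of -0.39 with all 28 below 0 and 1 called, and ketone and branched-chain amino acid use -0.38 with all 22 below 0 and 1 called (Ivd, which fell by 0.61). The gene called in the TCA list was Pdp2, a phosphatase that activates pyruvate dehydrogenase, at 17.8, 17.3 and 16.3 CPM in ISO/PE and 40.5, 37.6 and 29.7 CPM in ISO hearts (log2 fold change -1.07, SE 0.13, adjusted p = 0.00838). Mlxipl, the glucose-sensing factor ChREBP, had 10.1, 15.6 and 13.1 CPM in ISO/PE and 36.3, 31.9 and 27.2 CPM in ISO hearts, a log2 fold change of -1.30 (SE 0.17, adjusted p = 0.0085). Pdp2 and Mlxipl kept their calls without any 1 heart, and Cox8b and Ivd lost theirs without ISO male1, ISO/PE female2 or ISO female2, and Ivd also without ISO/PE male1. Cardiomyocyte markers had a median of -0.41, with 1 of 14 called lower and a summed level of 47878 to 68181 CPM in ISO/PE and 76558 to 85351 CPM in ISO hearts, and their part in these shifts was not tested. Scaling to these markers raised the median of all genes by 0.51 and turned the medians of the 6 metabolic lists of this and the preceding account to 0.05 to 0.17.

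Glucose genes went both ways. Of 26 tested genes of glucose uptake and glycolysis, 5 fell and 2 rose. Isoforms of phosphofructokinase went opposite ways. The platelet form Pfkp had 113, 103 and 103 CPM in ISO/PE and 55.8, 66.4 and 71.9 CPM in ISO hearts (log2 fold change 0.72, SE 0.11, adjusted p = 0.0117). The muscle form Pfkm had 535, 605 and 614 CPM in ISO/PE and 993, 923 and 789.8 CPM in ISO hearts (log2 fold change -0.63, SE 0.12, adjusted p = 0.0198). The lactate exporter gene Slc16a3 rose by 1.14. The muscle enolase gene Eno3 fell by 0.62, Pfkfb2, which makes an activator of phosphofructokinase, fell by 0.62 and the insulin-responsive glucose transporter gene Slc2a4 fell by 0.61 on the log2 scale. All 6 named genes lost their calls without ISO male1 or ISO/PE female2, and Pfkp and Slc16a3 alone kept theirs without ISO female2. Without ISO/PE male2, 2 genes were called lower.

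Genes of protein and sterol synthesis leaned high. Of 53 tested cytosolic ribosomal protein genes 52 had a positive log2 fold change (median 0.45) and 5 were called higher, among them Rpl26 (0.62), Rpl13 (0.82) and Rps16 (1.05), a family with many processed pseudogenes whose reads could have been split. Rpl26 had 61.2, 51.3 and 53.4 CPM in ISO/PE and 31.7, 33.8 and 42.5 CPM in ISO hearts. Rps16, at 2.302, 3.25 and 2.24 CPM in ISO/PE and 1.24, 1.300 and 1.21 CPM in ISO hearts, lost its call whichever heart was left out. The nucleolar genes Nop58 and Nhp2 rose by 0.65 and 0.61 (2 of 32 tested), and no tRNA synthetase (of 20) or proteasome gene (of 31) was called by edgeR, DESeq2 or limma-voom, with 9 and 6 of them at an unadjusted p under 0.05. Of 20 genes of cholesterol synthesis, 3 rose and 1 fell (median 0.50), with Hsd17b7 lower at -0.73. Sqle, which oxidises squalene, rose to 14.8, 7.67 and 9.48 CPM in ISO/PE hearts, against 4.94, 4.77 and 6.304 CPM in ISO hearts. Proline synthesis genes of the ATF4 list rose (Aldh18a1 by 0.63 and Pycr1 by 1.12), as did Asns by 0.85, while Vldlr, Gpt2 and Slc7a1 fell by 0.86, 0.70 and 0.70 (5 of 31 higher and 3 lower). The small heat shock gene Hspb1 rose by 1.59, with ISO/PE male2 highest (104, 75.3 and 229 CPM in ISO/PE and 39.5, 43.8 and 52.6 CPM in ISO hearts), and by 0.99 without that heart. None of the genes named here stayed called without ISO male1 or ISO/PE female2. Without ISO female2, Pycr1, Vldlr, Hsd17b7 and Nop58 did, and without ISO male2 10 ribosomal protein genes were called. Without ISO/PE male1, 3 ribosomal protein and 5 cholesterol genes were called higher, and without ISO/PE male2 2 of the ATF4 list.

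Few cell division genes were called. No DNA replication gene (of 31) was called by edgeR, 1 by DESeq2 and 1 by limma-voom, and 5 had an unadjusted p under 0.05. Without ISO/PE male2, 2 were called by edgeR, and without ISO male2 1. By edgeR, 3 of 31 mitosis genes rose (Aurka 0.84, Bub1 0.80 and Cenpe 0.70), although 30 of the 31 had a positive log2 fold change (median 0.40). The proliferation marker Mki67 had 60.6, 56.5 and 39.03 CPM in ISO/PE and 48.3, 39.5 and 47.04 CPM in ISO hearts, with ISO/PE male2 below every ISO heart (adjusted p = 0.412). Without ISO/PE male2 12 mitosis genes were called higher, without ISO male2 2 were higher and 1 lower, and without any of the other 4 hearts none. Of 25 tested CDK inhibitors and p53 targets, 3 rose and 2 fell (median 0.165). Cdkn2b, Gadd45b and Gadd45g rose by 1.35, 0.98 and 1.42, and Cdkn1c and Gadd45a fell by 0.76 and 0.85 on the log2 scale. These 5 genes lost their calls without ISO male1 or ISO/PE female2, and only Gadd45b and Gadd45g kept theirs without ISO female2.

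**Figure D5:**
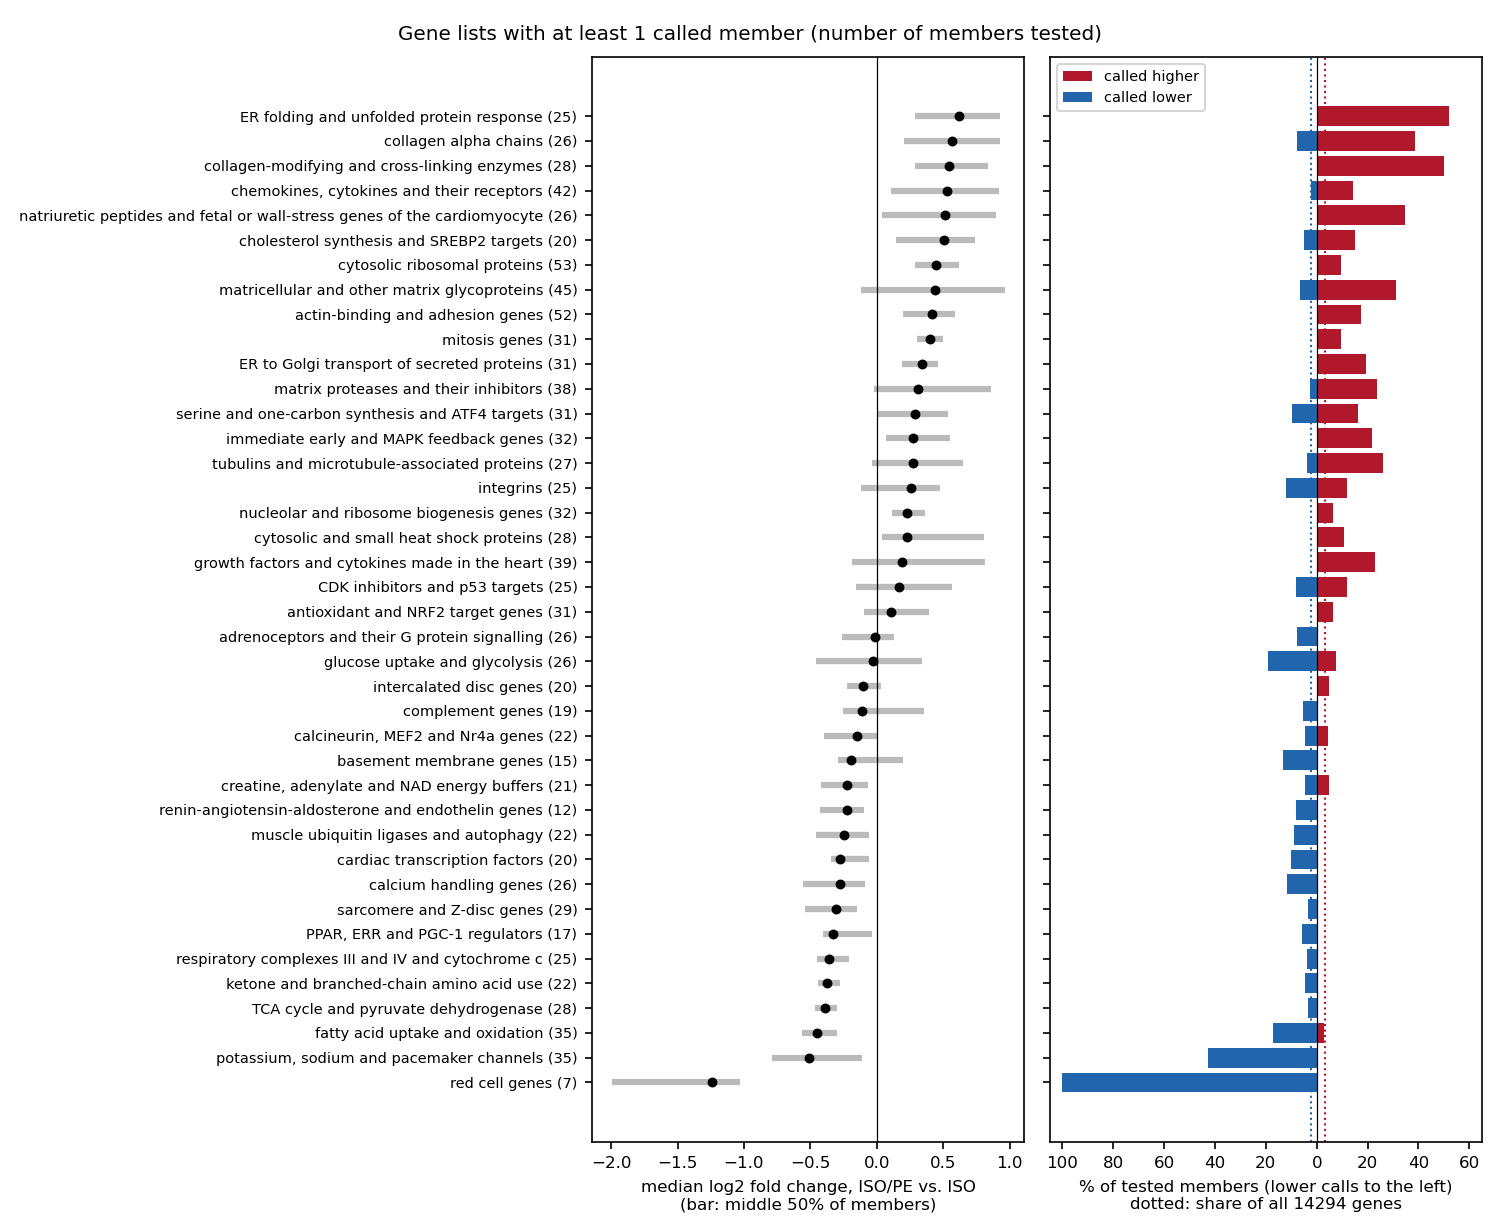
Median log2 fold change of ISO/PE vs. ISO (left, dot) with the middle 50% of members (grey bar) for each gene list that held a called member (cell marker lists left out), and the percentage of its tested members called higher (right, red) and lower (right, blue, plotted to the left). Dotted lines mark 3.22% and 2.36%, the shares over all genes, and ER folding lies at the top, channels and red cell genes at the bottom.

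All 7 red cell genes were lower in ISO/PE hearts (median -1.24). Alas2, the heme synthesis enzyme of red cell precursors on the X chromosome (150547417 to 150570622), had 47.5, 54.7 and 65.8 CPM in ISO/PE and 125, 142 and 187 CPM in ISO hearts, a log2 fold change of -1.43 (SE 0.17, adjusted p = 0.00777). The anion exchanger gene Slc4a1 was at 0.4603, 1.39 and 1.12 CPM in ISO/PE and 3.24, 5.03 and 9.05 CPM in ISO hearts (log2 fold change -2.56). The summed level of the 7 genes was 1022 to 1365 CPM in ISO/PE and 1979 to 3265 CPM in ISO hearts. The globin genes Hba-a1 and Hba-a2 had nearly equal counts and near-identical sequence, so they are not independent. ISO male2 was the highest of the ISO hearts for Alas2, Slc4a1 and the globins. Without ISO/PE female2, 2 of the 7 stayed called (Alas2 among them), without ISO male1 3 and without ISO/PE male1 5, and all 7 did without ISO female2, ISO/PE male2 or ISO male2. The part of the blood content of the hearts in these values was not tested.

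Of the remaining cell type lists, no endothelial marker (of 14) was called by edgeR, DESeq2 or limma-voom (median -0.22), and 4 had an unadjusted p under 0.05. The summed level of these markers was 3257 to 3721 CPM in ISO/PE and 3589 to 4273 CPM in ISO hearts. Meox1, a factor of activated fibroblasts, had 186, 179 and 205 CPM in ISO/PE and 68.7, 83.97 and 104 CPM in ISO hearts (log2 fold change 1.15, SE 0.15, adjusted p = 0.0085). Scara5, a ferritin receptor of resting fibroblasts, had 18.5, 23.5 and 31.9 CPM in ISO/PE and 60.9, 69.1 and 61.9 CPM in ISO hearts (log2 fold change -1.38, SE 0.17, adjusted p = 0.0085). Both kept their calls without any 1 heart. Pi16, of resting fibroblasts in the adventitia, fell by 0.73 and lost its call without ISO male1. No adipocyte marker (of 7 tested, median 0.99) was called by edgeR or limma-voom, 3 were by DESeq2 and 4 had an unadjusted p under 0.05. Without ISO male2, edgeR called 4 of the 7 higher (median 1.37), Adipoq among them (log2 fold change 1.98, adjusted p = 0.0204). With all hearts Adipoq was at 3.16, 2.09 and 2.54 CPM in ISO/PE and 0.618, 0.693 and 1.86 CPM in ISO hearts (adjusted p = 0.0757).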

How the data were processed

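Per the study's methods, RNA of pulverised right and left ventricles was sequenced, reads were aligned to the mouse genome mm10 with STAR, and the authors deposited raw counts of reads over the exons of each RefSeq transcript, without regard to strand. The methods name analyzeRepeats for the counting, whereas the submitters' processing notes name featureCounts and DESeq2. Which tool made the counts was not settled, so that the lack of strand rests on the methods alone. Tool versions were not found in the labels or methods. The authors made the deposited RPKM values from such counts, and these were used only to compare levels between genes. The authors' own fold changes and p values, and 12 further columns of per-sample values, were not used.

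The table of ISO/PE and ISO hearts held 30433 transcripts of 15504 gene symbols. It was deposited under a name that gives ISO/PE and control hearts, whereas its columns name ISO/PE and ISO hearts, and the columns were used. Its ISO counts equalled those of the ISO and control table for all 29889 transcripts in both (0 unequal values). For each of the 6826 symbols with several transcripts, the one with the highest total count was kept. Libraries then held 11969786 to 14480447 counts. Counts were tested with edgeR 4.0.16 (R 4.3.3; filterByExpr with a minimum count of 10 and a minimum total of 15, TMM scaling, quasi-likelihood F test, Benjamini-Hochberg adjustment over 14294 genes), with 3 hearts against 3. Calls needed an adjusted p under 0.05 and a log2 fold change above 0.6 or below -0.6. CPM used the TMM library sizes, and SE is that of the log2 fold change. Alternatives used DESeq2 1.42.0, limma-voom (limma 3.58.1), other scalings, filters and transcripts, all 9 hearts, the male hearts alone, sex or the heart's name in the model, and each heart left out in turn. The edgeR script was tested on simulated data.

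Named genes are the 12 called genes with the highest and the 12 with the lowest fold among those with a mean of at least 5 CPM and groups that did not overlap, the 10 with the largest difference in mean CPM in each direction, up to 4 called members with the lowest p in each direction of each of 63 lists, and the genes the study measured by PCR. Adipoq, Atf3, Calr, Canx, Cd36, Creld2, Dnajc3, Egr1, Fos, Gdf15, Hba-a1, Hba-a2, Hcn2, Herpud1, Hsp90b1, Hspa5, Il6, Kcna4, Kcnj2, Kcnv2, Lox, Map1b, Mki67, Myh6, Slc4a1, Syvn1, Tgfb3 and Ucp3 were chosen after their values were seen. The comparison and the lists were chosen with earlier results of these data known. Some genes that meet these rules are not reported here. Promoters and positions were taken from RefSeq and exon overlaps from GENCODE (both GRCm38).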

Additional observations from a re-analysis of the deposited data

Results flagged for a closer look

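For 1 named gene that was not called, the difference between ISO/PE and ISO hearts ran one way in the female hearts and the other way in every pairing of the male hearts. Herpud1, of ER-associated degradation, differed by -0.733 on the log2 scale in the females and by 0.184 in the males. Each group held 1 female heart, and the difference between the sexes was not tested.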

How the results depend on the processing

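The counts of 460 genes higher and 338 lower in ISO/PE hearts stayed within 1.5 times with DESeq2 (566 and 393), limma-voom (450 and 333), DESeq2 size factors, total counts, other filters, the longest transcript, a fit over 9 hearts and sex as a covariate. Leaving out 1 heart gave 57 to 523 genes higher and 36 to 449 lower. In male hearts only the counts were 70 and 22, with the libraries scaled to cardiomyocyte markers 4742 and 81, and at an adjusted p under 0.05 alone 750 and 619. With the heart's name as a replicate block they were 191 and 112. The deviations of same-named hearts from their group means correlated at 0.01, -0.06 and -0.12, and those of differently named hearts at -0.11 to 0.15. With 3 hearts in each group, these values cannot settle whether the names pair the hearts. None of these alternatives turned the direction of a named called gene. For genes whose groups did not overlap, leaving out hearts could hardly turn it, so this is no separate support. Of 217 named genes, 205 kept their side of the threshold with limma-voom, 214 with DESeq2, 187 with sex as a covariate, 143 scaled to cardiomyocyte markers, 131 with the replicate block and 78 in male hearts only. Without ISO male1 69 did, without ISO/PE female2 80, without ISO female2 139, and without any of the other 3 hearts 183 to 199. The cause of the changes was not tested. With 3 hearts in each group and the fold threshold of 0.6, a gene that was not called is not shown to be unaffected.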
